A study of Mus musculus with 8 samples.

Results

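The platelet-derived growth factor (PDGF) family was followed in cells sorted from healing mouse skin, as 7 genes of the 43346 in the authors' table of all genes. The members were chosen by symbol: the ligand genes Pdgfa, Pdgfb, Pdgfc and Pdgfd, the receptor genes Pdgfra and Pdgfrb, and the receptor-like gene Pdgfrl. The mice had the genotype Sm22-Cre;tdTomato on a mixed background. Viable cells bright for tdTomato were taken from skin wounds at 12, 15, 21 and 26 days post wounding, with 2 SMART-seq2 libraries (full-length cDNA made from small amounts of RNA) per day and 8 in all. All 4 groups share the genotype and the wound, and no unwounded or unlabelled cells enter a comparison. The Sm22 promoter is active in contractile cells, which include wound myofibroblasts and also the mural cells of vessels, so the reporter marks more than 1 cell type. Whether both libraries from one day stem from different animals is not labelled, so p-values measure the spread between libraries, which may be technical.

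PDGF ligands are dimers that bind receptor tyrosine kinases on mesenchymal cells and drive their division, migration and survival. PDGF-A and PDGF-B can bind once secreted, whereas PDGF-C and PDGF-D carry a CUB domain that a protease must first remove. Receptor alpha, encoded by Pdgfra, is a common marker of skin fibroblasts and of fat cell progenitors, and receptor beta, encoded by Pdgfrb, is carried by fibroblasts and by pericytes, the mural cells of small vessels. In vessels the usual source of PDGF-B is the endothelium. Pdgfrl encodes a protein that resembles the outer part of a PDGF receptor and has no kinase domain.

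Levels are given in TPM, a transcript abundance scaled by transcript length and by the library total, so that levels of different genes can be set side by side. The depth of the libraries is unknown, and 13135 to 14147 genes reached 1 TPM in a library. Markers of each cell type were summed per library as a check of the label. Fibroblast markers reached 40572 to 109541 TPM and contractile markers 953 to 3710 TPM, and no marker of these 2 lists was at 0 in all libraries. Pericyte markers, of mural cells that the reporter can also mark, reached 454 to 2388 TPM. RNA of other cells was present, with summed levels of 702 to 5364 TPM for macrophage and leukocyte markers, 59.2 to 135 TPM for endothelial markers and 6.2 to 584 TPM for keratinocyte markers. Between day 12 and day 26, 10 of 12 macrophage and leukocyte markers fell and 9 of 9 tested keratinocyte markers rose, while 0 of 9 pericyte markers and 0 of 10 endothelial markers passed in limma (0 in each list at an unadjusted p under 0.05, against 31.9% of all tested genes). Over the same span, alongside Pdgfrl and Pdgfd, 7 of 9 fibroblast markers rose and 1 fell, with a median log2 change of 1.09 (Dcn 1.79, Col3a1 1.24). Of the contractile markers 4 of 6 fell, with a median of -1.60 (Actg2 -2.53). The part of these shifts in the changes of Pdgfrl and Pdgfd was not tested. Xist, which marks female cells, had 30.7 and 5.54 TPM in the day 15 libraries, 4.78 and 27.5 TPM in those of day 21, and no more than 0.01 TPM in those of days 12 and 26, so the sex of the animals and the day cannot be told apart in comparisons between these pairs of days. Libraries 1 and 2 of a day follow the order of the authors' columns. In bulk samples, fewer cells of a type and less RNA per cell cannot be told apart.

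Over the whole span, 2 of the 7 members rose and 5 did not pass. The risers were Pdgfrl, with a log2 change of 1.71, and Pdgfd, with 1.29. Among all 15062 tested genes 17.0% passed: 5.26% were higher and 11.8% lower on day 26 than on day 12 (792 against 1770 genes), and the median log2 change was -0.20. After scaling by the median ratio the genes called were 1150 higher and 1167 lower, or 7.64% higher, and both members still rose. Pdgfrl was the 1 member that also differed between days in an F test over the 4 days, which 12.4% of tested genes passed. Tests were made with limma on log2(TPM + 1), a scale that understates the change of genes with few TPM, with p-values adjusted over all tested genes by the Benjamini-Hochberg method and 0.05 as the threshold. All 7 members had at least 1 TPM in at least 2 libraries and were tested.

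**Figure D1:**
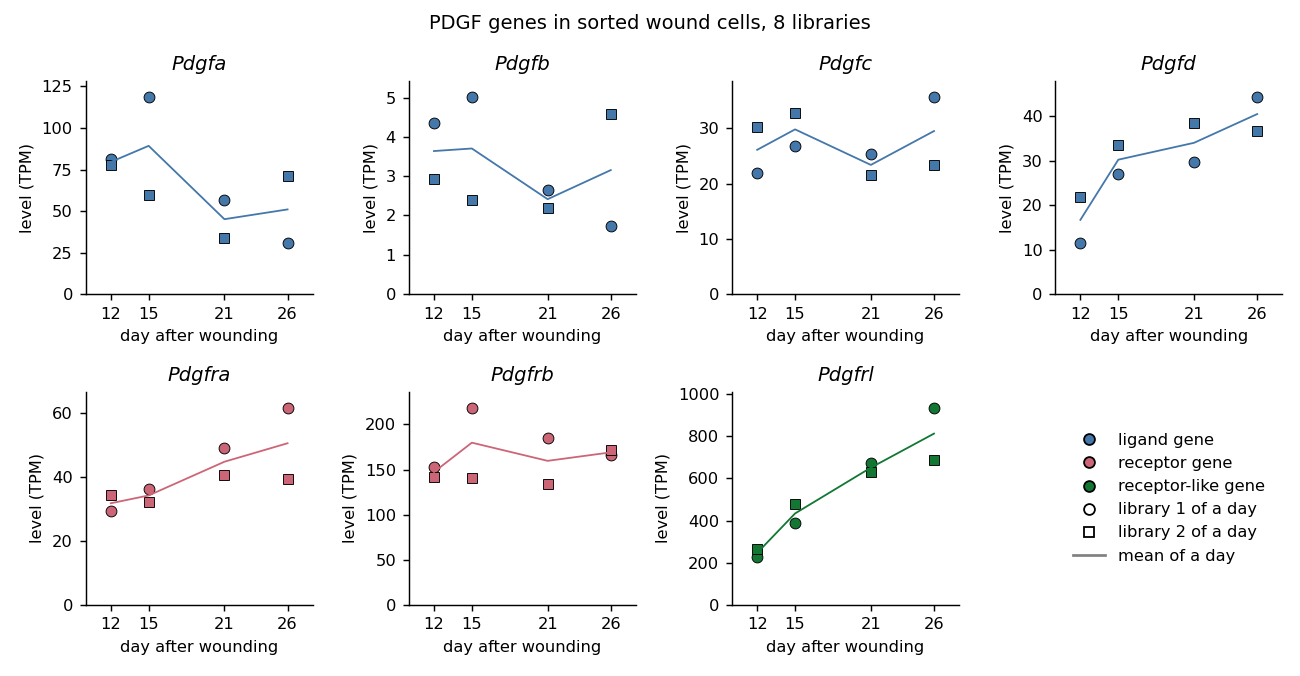
Level in TPM of the 7 PDGF genes (vertical axes from 0, scaled per gene) against the day after wounding, with circles and squares for libraries 1 and 2 of a day and lines through the day means. Pdgfrl goes from 227 and 266 TPM on day 12 to 937 and 689 TPM on day 26, and the libraries of Pdgfa, Pdgfb and Pdgfrb lie far apart on day 15.

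Pdgfrl was the most abundant member in every library. It lies on chromosome 8 from 40926212 to 40990785 (GENCODE vM21 on GRCm38, the mm10 build; ENSMUSG00000031595.9), with no other annotated gene over it. Its level was 227 and 266 TPM at day 12 and 387 and 480 TPM at day 15, then 673 and 630 TPM at day 21 and finally 937 and 689 TPM at day 26. Both libraries of each day lay above both libraries of the day before, at all 3 steps, an order seen in 0.916% of tested genes. The mean over all libraries, 536 TPM, exceeded the mean of 98.2% of the tested genes.

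From day 12 to day 26 the level of Pdgfrl rose 3.30-fold in mean TPM (log2 change 1.71, SE 0.18, 95% interval 1.29 to 2.12, limma adjusted p = 0.0008, higher in 2 of 2 libraries). It was already higher on day 21 than on day 12, when 10.3% of tested genes passed and 3.63% were higher (log2 change 1.40, SE 0.18, adjusted p = 0.00396). It was higher on day 26 than on day 15 as well, when 6.25% passed and 1.83% were higher (log2 change 0.90, SE 0.18, adjusted p = 0.0259). After median-ratio scaling, under which Pdgfrl passed in both comparisons, the share of all calls that were higher went from 35.2% to 49.4% between days 12 and 21 and from 29.2% to 55.7% between days 15 and 26. The call between days 15 and 26 was lost when any 1 of 4 libraries was left out (library 1 of day 15, both of day 21 in turn, and library 1 of day 26), with adjusted p between 0.0200 and 0.128 over the 8 omissions. The single steps did not pass: the log2 change was 0.81 from day 12 to 15 (adjusted p = 0.155), 0.59 from day 15 to 21 (adjusted p = 0.138) and 0.30 from day 21 to 26 (adjusted p = 0.413). With the Xist level as a covariate, the change was 1.73 from day 12 to 21 (limma adjusted p = 0.214) and 0.56 from day 15 to 26 (adjusted p = 0.873). From day 12 to 26 it was 1.71 as before (adjusted p = 0.00184). Both of these days had almost no Xist, so the covariate could not move that change and is no test of it. Without the pair of libraries highest in Xist, the whole-span adjusted p was 0.0145 and that of the F test over days was 0.0567, against 0.00304 with all libraries.

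The 3 protein-coding genes with the profile nearest to that of Pdgfrl were Itgbl1, Creb3l3 and Lox, by the root mean square difference of log2(TPM + 1), centred per gene, over the 8 libraries. That difference was 0.11 for Itgbl1, which encodes an integrin-like secreted protein, 0.13 for Creb3l3, a transcription factor known from liver, and 0.14 for Lox, whose enzyme cross-links collagen and elastin. Itgbl1 went from 162 and 222 TPM on day 12 to 778 and 572 TPM on day 26. Lox went from 254 and 343 TPM to 944 and 650 TPM. Creb3l3 was less abundant, at 21.25 and 21.13 TPM on day 12 against 80.4 and 71.4 TPM on day 26. In all 3 genes, as in Pdgfrl, library 1 of day 26 held more than library 2. They were picked for their likeness over these libraries, so their changes are a description.

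**Figure D2:**
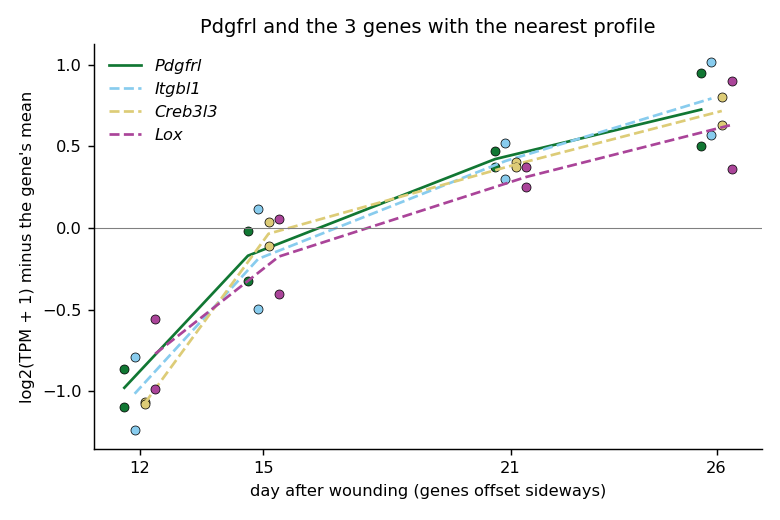
log2(TPM + 1) minus each gene's mean over the 8 libraries (vertical axis) against the day after wounding, for Pdgfrl and the 3 genes nearest to it, with points for libraries, lines through day means and genes offset sideways. Root mean square differences from Pdgfrl are 0.11 for Itgbl1, 0.13 for Creb3l3 and 0.14 for Lox.

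Among the ligand genes, Pdgfd rose and the other 3 did not pass. Pdgfd lies on chromosome 9 from 6168584 to 6378850 (ENSMUSG00000032006.10). Ddi1, a gene on the opposite strand inside it, was at no more than 0.14 TPM in a library. The level of Pdgfd was 11.5 and 21.9 TPM at day 12 and 27.0 and 33.5 TPM at day 15, then 29.7 and 38.4 TPM at day 21 and finally 44.4 and 36.6 TPM at day 26. Every library of days 15, 21 and 26 lay above both of day 12, while days 15 and 21 overlapped, as did days 21 and 26. Of all tested genes, 17.9% were likewise higher on day 26 than on day 12 without overlap. From day 12 to day 26 Pdgfd rose 2.42-fold in mean TPM (log2 change 1.29, SE 0.29, 95% interval 0.64 to 1.94, limma adjusted p = 0.0175, higher in 2 of 2 libraries). The change from day 12 to 21 was 1.04 and just missed the threshold (adjusted p = 0.0534), and so did the F test over days (adjusted p = 0.0579).

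The whole-span call of Pdgfd rested on single libraries. Without library 1 of day 12, its lowest, the log2 change was 0.85 (adjusted p = 0.118), and without library 1 of day 26 it was 1.15 (adjusted p = 0.0780). Over the 8 omissions the change was 0.85 to 1.73 and the adjusted p 0.0110 to 0.118. In a fit of days 12 and 26 alone the adjusted p was 0.0668, and without the pair of libraries highest in Xist it was 0.0669. With the Xist level as a covariate the log2 change was the same, 1.29 (limma adjusted p = 0.0326). Days 12 and 26 both had almost no Xist, so this covariate could not move the change and is no test of it.

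The windows around the starts of Pdgfd and Pdgfc are shown because the pair encode the CUB-type ligands and gave different calls, Pdgfd rising and Pdgfc not passing. Both run from 250 bases before to 50 bases after the RefSeq start on the plus strand of GRCm38.p6, Pdgfd at chr9:6168236-6168535 and Pdgfc at chr3:81036166-81036465, and capitals mark matches to searched motifs.
Pdgfd: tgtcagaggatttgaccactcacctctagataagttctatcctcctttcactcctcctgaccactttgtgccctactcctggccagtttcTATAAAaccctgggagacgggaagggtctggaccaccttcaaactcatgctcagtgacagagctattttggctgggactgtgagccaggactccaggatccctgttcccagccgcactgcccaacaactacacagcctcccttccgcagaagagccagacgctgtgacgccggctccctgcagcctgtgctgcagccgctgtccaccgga
Pdgfc: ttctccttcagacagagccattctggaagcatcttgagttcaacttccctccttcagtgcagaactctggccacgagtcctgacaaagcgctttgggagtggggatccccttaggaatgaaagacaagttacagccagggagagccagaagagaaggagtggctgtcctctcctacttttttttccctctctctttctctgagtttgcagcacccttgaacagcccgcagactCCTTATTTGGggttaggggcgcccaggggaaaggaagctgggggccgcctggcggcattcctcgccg
Windows were found for 4 of the 7 members. The motifs searched, on both strands, were TATAAA (the TATA box), CCAAT (the box bound by NF-Y), GGGCGG (the GC box of Sp factors), TGANTCA (the AP-1 site) and the CArG box, the site known for serum response factor. Pdgfd held 1 TATAAA, 160 bases before the RefSeq start, a motif found in 13.6% of 32851 such windows. The whole Pdgfd window ends before the GENCODE start of the gene at 6168584, so the distance from that start is larger. Pdgfc held a CArG box, 17 bases before the start and readable on both strands, a motif found in 1.63% of windows. A match describes these letters and shows no binding.

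Pdgfc, on chromosome 3 from 81036416 to 81214040 (ENSMUSG00000028019.5), had 22.0 and 30.3 TPM at day 12 and 26.8 and 32.8 TPM at day 15, then 25.3 and 21.5 TPM at day 21 and finally 35.7 and 23.3 TPM at day 26. Days 12 and 26 overlapped, and the log2 change between them was 0.16 (95% interval -0.40 to 0.72, limma adjusted p = 0.704). Its sign turned when library 1 of day 12 or library 1 of day 26 was left out (log2 change -0.065 and -0.14).

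Pdgfa, on chromosome 5 from 138976014 to 138997370 (ENSMUSG00000025856.11), was the ligand gene with the highest mean. It had 81.3 and 77.9 TPM at day 12 and 119 and 59.7 TPM at day 15, then 56.6 and 33.6 TPM at day 21 and finally 30.9 and 71.1 TPM at day 26. Both libraries of days 21 and 26 were below both of day 12, an order that 43.5% of tested genes showed between days 12 and 26. The log2 change over the whole span was -0.75 (95% interval -1.72 to 0.22, limma adjusted p = 0.266), and from day 15 to day 21 it was -0.93 (adjusted p = 0.284). The libraries of a day differed by 1.99-fold on day 15 and by 2.30-fold on day 26. Without library 2 of day 26 the whole-span change was -1.34 (adjusted p = 0.0699), and without library 1 of that day it was -0.16 (adjusted p = 0.840).

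Pdgfb, on chromosome 15 from 79995874 to 80014977 (ENSMUSG00000000489.6), was the least abundant member. It had 4.36 and 2.92 TPM at day 12 and 5.02 and 2.39 TPM at day 15, then 2.65 and 2.18 TPM at day 21 and finally 1.74 and 4.57 TPM at day 26. The libraries of day 26 enclosed those of day 12, and the log2 change was -0.23 (95% interval -1.17 to 0.71, limma adjusted p = 0.742), or 0.050 after quantile normalization.

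The make-up of the ligand transcripts is given as shares of the 4 ligand genes. Pdgfa took 68.2% and 58.5% of their TPM on day 12 and 27.4% and 52.4% on day 26, while Pdgfd took 9.65% and 16.5% on day 12 and 39.4% and 27.0% on day 26. Both libraries of day 26 were thus below those of day 12 for the Pdgfa share and above them for the Pdgfd share. Exact permutation tests of the F statistic over days gave p = 0.362 for the Pdgfa share and p = 0.219 for the Pdgfd share. On day 26 Pdgfd was above Pdgfa in library 1 and below it in library 2. The summed level was 119 and 133 TPM at day 12 and 178 and 128 TPM at day 15, then 114 and 95.6 TPM at day 21 and finally 113 and 136 TPM at day 26, and an exact permutation test of the F statistic over days gave p = 0.305 (n = 2 per day, 2520 arrangements, smallest possible p 0.00952).

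**Figure D3:**
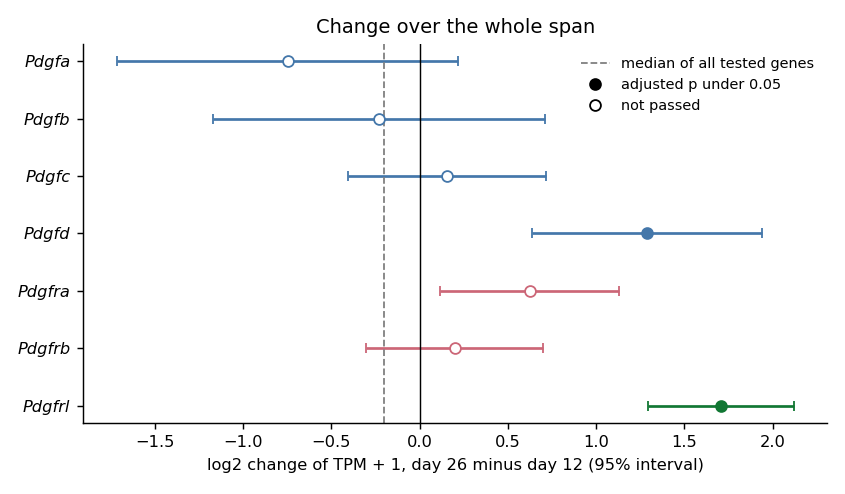
Change in log2(TPM + 1) from day 12 to day 26 (horizontal axis) of each PDGF gene with its 95% interval, filled where the adjusted p was under 0.05. Pdgfrl at 1.71 and Pdgfd at 1.29 are filled, Pdgfra at 0.62 is open, and the dashed line marks the median of all tested genes at -0.20.

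Neither receptor gene passed. Pdgfra lies on chromosome 5 from 75152292 to 75198215 (ENSMUSG00000029231.11). It had 29.3 and 34.3 TPM at day 12 and 36.3 and 32.2 TPM at day 15, then 49.0 and 40.7 TPM at day 21 and finally 61.8 and 39.4 TPM at day 26. Every library of days 21 and 26 lay above every library of days 12 and 15, and 17.9% of tested genes were higher on day 26 than on day 12 without overlap. The log2 change over the whole span was 0.62 (SE 0.22, 95% interval 0.11 to 1.13, unadjusted p = 0.0219, limma adjusted p = 0.0932). It passed after scaling by the median ratio (0.81, adjusted p = 0.0449) and without library 2 of day 26 (0.94, adjusted p = 0.0255), and was 0.31 without library 1 of that day (adjusted p = 0.407).

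Pdgfrb, on chromosome 18 (ENSMUSG00000024620.7), had 152 and 142 TPM at day 12 and 219 and 141 TPM at day 15, then 185 and 134 TPM at day 21 and finally 167 and 171 TPM at day 26. Library 1 of day 15 was the highest, and days 15 and 21 overlapped all others. The log2 change over the whole span was 0.20 (95% interval -0.30 to 0.70, limma adjusted p = 0.575). Pdgfrb exceeded Pdgfra in every library. Pdgfra made up 16.2% and 19.4% of the summed TPM of both receptor genes at day 12 and 14.2% and 18.6% at day 15, then 20.9% and 23.2% at day 21 and finally 27.1% and 18.7% at day 26. Both libraries of day 21 lay above those of days 12 and 15, and both of day 26 lay narrowly above those of day 15. The other pairs of days overlapped, and the exact permutation test over days gave p = 0.343 (n = 2 per day).

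Within a day, Pdgfa, Pdgfb and Pdgfrb were higher in the library with more pericyte marker RNA, on 4 of 4 days each. The summed level of the 9 pericyte markers was 1369 and 1084 TPM at day 12 and 2388 and 879 TPM at day 15, then 887 and 454 TPM at day 21 and finally 683 and 1696 TPM at day 26. Rgs5, a defining pericyte gene, was at 1261 and 400 TPM on day 15 and at 325 and 909 TPM on day 26. The contractile markers had the same order within each day, with 2670 and 1681 TPM on day 15 and 1043 and 1914 TPM on day 26. Pdgfd ran the other way, being lower in the library with more pericyte marker RNA on 4 of 4 days. Of all tested genes 15.6% had the first order on all 4 days and 2.91% the second, and these orders were noticed in the data. Pdgfrl and Pdgfc had the within-day order of the summed fibroblast markers on 4 of 4 days, as did 4.35% of tested genes, and Pdgfd and Pdgfra had it on 3 of 4. Collagen genes make up most of that sum, and not every marker of the list shared its order. Dcn ran the other way, with 5724 and 5968 TPM on day 21 and 9454 and 11248 TPM on day 26. Pdgfa, Pdgfb and Pdgfrb each had the within-day order of the summed endothelial markers on 3 of 4 days. Those markers had 59.2 TPM in library 1 and 135 TPM in library 2 of day 26. The same genes also had the order of the macrophage and leukocyte markers on 3 of 4 days. The share of all tested genes with such an order on 3 of 4 days was not counted.

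In a fit with the summed pericyte level as a covariate, chosen after the values were seen, Pdgfa fell by 0.61 on the log2 scale from day 12 to day 26 (limma adjusted p = 0.0189), and its change from day 15 to day 21 was -0.028 against -0.93 without the covariate. In the same fit Pdgfrl rose by 1.67 (adjusted p = 0.00048) and Pdgfd by 1.24 (adjusted p = 0.0114) over the whole span. Pdgfd then also passed the F test over days (adjusted p = 0.0440). More genes of the whole table passed with this covariate, 3137 against 2562 over the whole span and 2126 against 1866 in the F test. Pdgfra (0.61, adjusted p = 0.0917) and Pdgfrb (0.25, adjusted p = 0.284) did not pass. Whether RNA of pericytes sets the level of Pdgfa, Pdgfb or Pdgfrb in these libraries was not tested.

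**Figure D4:**
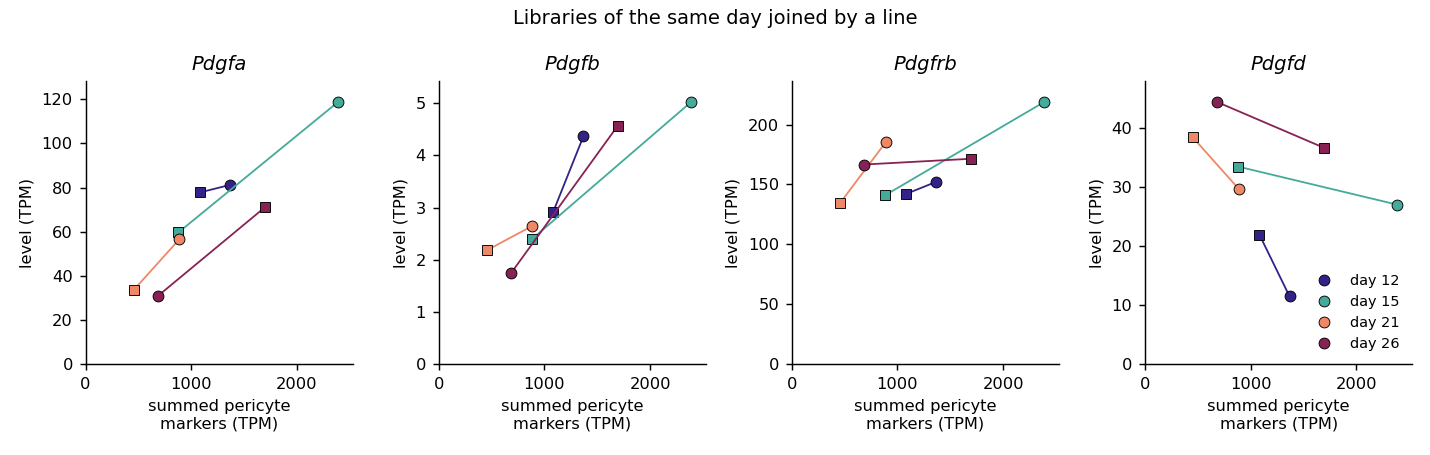
Level in TPM of Pdgfa, Pdgfb, Pdgfrb and Pdgfd (vertical axes) against the summed TPM of 9 pericyte markers (horizontal axis), with circles and squares for libraries 1 and 2 and a line joining the libraries of a day. The lines go up for Pdgfa, Pdgfb and Pdgfrb and down for Pdgfd on 4 of 4 days.

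Other genes of the pathway were followed through 8 lists, of which 100 of 106 genes were tested. From day 12 to day 26, 6 rose, 12 fell and 82 did not pass, against 5.26% higher and 11.8% lower of all tested genes, and the median log2 change was -0.17 against -0.20. After scaling by the median ratio 11 rose and 6 fell, and after quantile normalization 9 rose and 9 fell.

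Of the genes that process ligands, 1 of 8 tested fell and 7 did not pass, with a median of -0.55. Bmp1, whose protease cuts procollagens and other secreted proteins, fell from 311 ± 13.2 to 179 ± 31.5 TPM (SD, n = 2; limma adjusted p = 0.0130), a call lost after median-ratio scaling. Plat, whose product tPA activates PDGF-C, went from 257 ± 75.1 to 163 ± 59.1 TPM without passing (adjusted p = 0.125). Plau, whose product uPA activates PDGF-D, stood at 6.93 ± 1.22 TPM before and 2.63 ± 1.11 TPM after and missed the threshold (adjusted p = 0.0623). Of the binding partners and co-receptors, 2 of 10 rose, 2 fell and the remaining 6 missed the threshold. Lrp1, an endocytic receptor that works with receptor beta, rose from 98.6 ± 1.13 to 217 ± 17.2 TPM (log2 change 1.13, adjusted p = 0.0011). Sparc, a matrix protein that binds PDGF-B, rose from 24401 ± 3462 to 55038 ± 1671 TPM (adjusted p = 0.00545). The proteoglycan gene Gpc1 fell from 65.5 ± 7.18 to 40.2 ± 2.91 TPM and Pdap1 from 57.3 ± 2.14 to 40.4 ± 3.07 TPM. Sparc and Pdap1 did not pass after either rescaling, and Gpc1 not after median-ratio scaling.

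Of the adaptors and enzymes that dock on active receptors, 2 of 28 rose, 4 fell and the remaining 22 missed the threshold. The adaptor gene Nck2 fell from 15.4 ± 1.99 to 4.89 ± 0.113 TPM (log2 change -1.47, limma adjusted p = 0.0156) and Grb2, the adaptor that links receptors to Ras, from 28.7 ± 0.0424 to 16.7 ± 0.184 TPM. The kinase gene Fyn rose from 15.7 ± 3.83 to 34.1 ± 8.38 TPM. Nck2, Grb2 and Fyn passed after both rescalings. Of the Ras-MAPK and Akt cascade, 2 of 15 fell and 13 did not pass. Hras, which encodes a Ras GTPase, fell from 48.0 ± 2.77 to 27.5 ± 5.85 TPM, a call lost after both rescalings. Of the negative regulators, 2 of 15 fell and 13 did not pass, namely the phosphatase genes Ptpn2, from 34.9 and 36.1 TPM on day 12 to 20.8 and 21.6 TPM on day 26, and Ptprj, from 5.15 ± 0.297 to 1.90 ± 0.559 TPM. Ptpn2 did not pass after median-ratio scaling. Spry1 and Lrig1, which damp receptor signalling, passed as risers after both rescalings and not as deposited.

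Immediate early genes, which growth factors and also tissue dissociation induce, gave 0 passes among 11 tested in limma (2 at an unadjusted p under 0.05, against 31.9% of all tested genes). Their summed level reached 9275 and 2216 TPM at day 26, against 3005 and 3139 TPM at day 12. The lowest p among them was that of Nr4a1 (42.4 ± 2.30 and 149 ± 117 TPM, adjusted p = 0.0980), followed by Fosl1 (2.56 ± 0.799 and 0.960 ± 0.453 TPM, adjusted p = 0.151).

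In the VEGF branch of the family 1 of 7 genes rose, 1 fell and 5 missed the threshold. Vegfc, a growth factor of lymphatic vessels, rose from 9.23 ± 1.86 to 23.9 ± 1.17 TPM (log2 change 1.30, limma adjusted p = 0.00729), and Vegfb fell from 16.0 ± 2.22 to 8.52 ± 1.90 TPM (adjusted p = 0.0388), a call lost after both rescalings. Among the receptors structurally closest to the PDGF receptors and their ligands, 1 of 6 tested rose and 5 did not pass. Csf1, the macrophage growth factor gene, rose from 23.7 ± 0.120 to 58.0 ± 1.64 TPM (log2 change 1.26, adjusted p = 0.00125), whereas its receptor gene Csf1r had 64.9 ± 15.6 and 67.8 ± 1.34 TPM (adjusted p = 0.829).

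**Figure D5:**
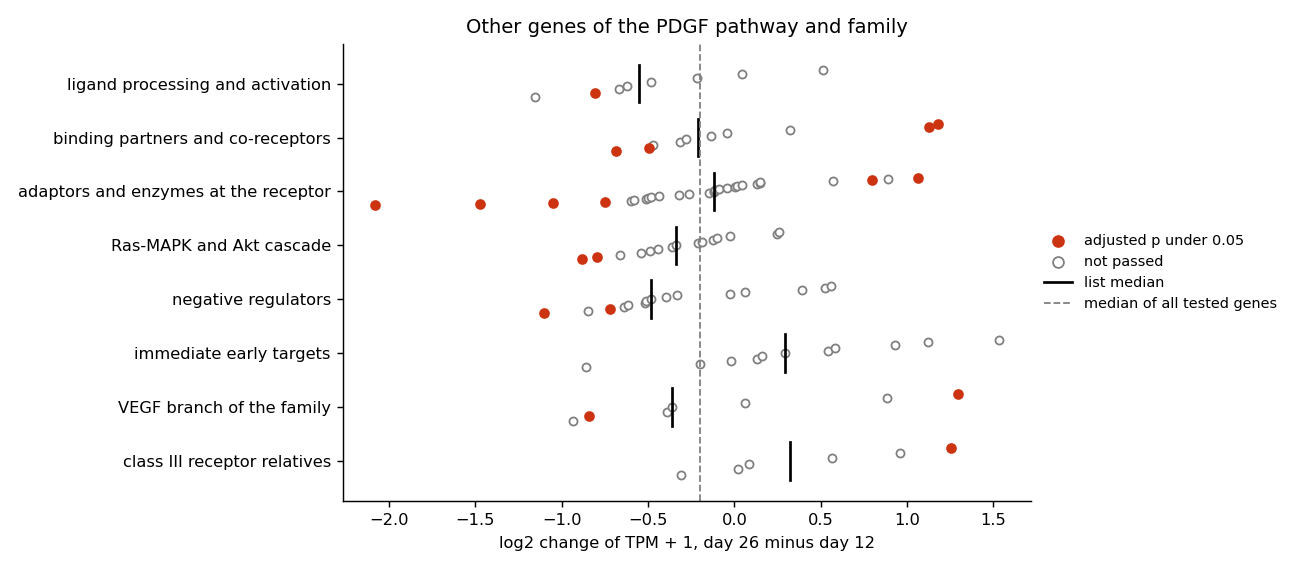
Change in log2(TPM + 1) from day 12 to day 26 (horizontal axis) of each tested gene in 8 lists of the PDGF pathway and family (rows), filled where the adjusted p was under 0.05, with a bar at the list median and a dashed line at the median of all tested genes. Of 100 genes 6 are filled on the right, above 0, and 12 on the left, below 0.

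In the adjacent steps no member passed in limma, where 0.159%, 1.40% and 0.319% of tested genes passed with adjustment. At an unadjusted p under 0.05 there were 2 of 7 members from day 12 to 15 (Pdgfd and Pdgfrl), 1 from day 15 to 21 (Pdgfrl) and 0 from day 21 to 26, against 8.74%, 18.6% and 18.7% of tested genes. The share of adjusted calls that were higher was 54.2%, 35.1% and 31.3% as deposited and 25%, 48.4% and 46.7% after quantile normalization. From day 12 to 15 these shares rest on few genes, 13 higher and 11 lower as deposited and 1 higher and 3 lower after quantile normalization. By mean level, Pdgfd, Pdgfra and Pdgfrl all had the order of the days, 12, 15, 21 and 26, while Pdgfa and Pdgfb were lowest on day 21 and highest on day 15. In the authors' deposited table of clusters, Pdgfd and Pdgfrl are the 2 members listed among 4120 genes, both in cluster C4 of 688 genes. The authors' deposited table gives a p-value of 0.0344 and a fold of 2.3 from day 12 to 26 for Pdgfd, and 0.00271 and 3.3 for Pdgfrl, with the test not stated.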

How the data were processed

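The data were RNA levels in 8 SMART-seq2 libraries of sorted wound cells, 2 for each of 4 days. The deposited signal per gene and library was read as TPM plus 1, since no value was under 1 and the values minus 1 summed to 1000000 per column, and 1 was subtracted. RSEM 1.12.2 and mm10 appear in the submitters' processing notes, with aligner and annotation not given in the sources used here. The SMART-seq2 method keeps no strand, so overlapping antisense genes cannot be told apart. Column names show a day but number the libraries differently from the labels, and each column was therefore tied to a day alone. The deposited cluster tables give the authors' p-value and a signed fold score per gene; their 40 columns of sample values were not used.

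Levels were taken to log2(TPM + 1). A gene entered the test if 2 or more libraries reached 1 TPM, and was tested with limma 3.58.1 in R 4.3.3 (trend method, day as factor, residual degrees of freedom 4, prior 4.76), with an F test and 2-sided contrasts that share libraries where they share a day. The method was tested on simulated data. Alternatives were another pseudocount, other filters, other scalings, no trend, only the days compared, Xist as a covariate and each library left out. The covariate of pericyte markers and the omission of the pair highest in Xist were added after the values were seen. Members, lists and tests were chosen with earlier results of these data known. Named list genes are up to 4 per list that passed over the whole span, or, in a list without passes, the pair lowest in p, and some genes the rule names are not reported here; Plat, Plau, Csf1r, Dcn, Col3a1, Actg2, Spry1, Lrig1, Rgs5 and Ddi1 were named after their values were seen. Marker lists for platelets and Schwann cells were summed too, at 101 to 625 and 88.1 to 567 TPM. The exact permutation tests used every arrangement of the libraries over days. Gene positions are from GENCODE vM21, matched by gene symbol, and sequences from RefSeq, GRCm38.p6. Identifiers are printed with the version of the authors' table, which can differ from that of GENCODE vM21.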

Additional observations from a re-analysis of the deposited data

How the results depend on the processing

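Pdgfrl kept its rise from day 12 to 26 under every setting run, with log2 changes of 1.48 to 1.93 over the 8 omissions of a library. The other calls of members moved. With 1 library left out, that day's lone library was assumed to vary like the others, and limma then passed 1 to 2 members in the F test, 1 to 2 from day 12 to 21, 0 to 1 from day 15 to 26 and 1 to 3 from day 12 to 26. Counts of all genes passed with 1 library left out were 570 to 1822 in the F test (1866 with all libraries), 0 to 50 from day 12 to 15 (24), 2 to 321 from day 15 to 21 (211), 0 to 71 from day 21 to 26 (48), 209 to 1784 from day 12 to 21 (1555), 413 to 585 from day 15 to 26 (942) and 718 to 2538 from day 12 to 26 (2562). Without a filter these counts were, in that order, 781, 3, 44, 10, 757, 337 and 1667, with 0 members passing from day 15 to 26 and 1 from day 12 to 26. With a filter of 5 TPM, 28 genes passed from day 21 to 26, and 2 members passed from day 12 to 21. A pseudocount of 0.1 gave 134 from day 15 to 21 and 15 from day 21 to 26. Quantile normalization gave 4 from day 12 to 15, and median-ratio scaling 4 from day 12 to 15 and 127 from day 15 to 21. Without the trend the counts were 1 from day 12 to 15, 51 from day 15 to 21, 12 from day 21 to 26, 1024 from day 12 to 21 and 573 from day 15 to 26, the last with 0 members. With only the days compared they were 0 from day 12 to 15 (1334 at an unadjusted p under 0.05), 16 from day 15 to 21, 4 from day 21 to 26, 15 from day 15 to 26 with 0 members, and 1590 from day 12 to 26 with 1 member. With Xist as a covariate they were 1014 in the F test, 0 from day 12 to 15 (450 unadjusted), 74 from day 15 to 21, 0 from day 21 to 26 (798 unadjusted), and 3 and 2 from day 12 to 21 and day 15 to 26, each with 0 members. Without the pair highest in Xist, which removes 2 of 8 libraries, they were 276 in the F test with 0 members, 0 from day 12 to 15, 0 from day 15 to 21 and 0 from day 21 to 26 (796, 1502 and 2044 unadjusted), 23 from day 12 to 21 and 5 from day 15 to 26, each with 0 members, and 1569 from day 12 to 26 with 1 member. With the pericyte covariate 2 members and 2126 genes passed the F test, and 3 members and 3137 genes passed from day 12 to 26. In that fit 14 genes passed from day 12 to 15, 51 from day 15 to 21 and 135 from day 21 to 26. The sign turned for Pdgfrl from day 21 to 26 with Xist as a covariate (-0.022), for Pdgfb from day 12 to 26 after quantile normalization (0.050), and when libraries were left out for Pdgfb (-0.74 to 0.28) and Pdgfc (-0.14 to 0.45). Where no cause is given, the cause was not tested. No paired analysis was possible because the value columns do not carry the replicate numbers of the labels. The depth is unknown, which limits Pdgfb most, at 1.74 to 5.02 TPM.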
